A study of Mus musculus with 20 samples.

Results

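Bladders of mice that carried an induced bladder tumor and were treated with CM272 plus cisplatin were compared with untreated tumor-bearing bladders of the same genotype. The comparison took every array titled as treated bladder (3 samples) and every array titled as tumor (7 samples), 10 of the 20 samples of the series, and described them across 30142 genes. Treated bladders came from FVB/N mice with a genotype that includes floxed Rb and the loss of p107 beside further floxed alleles, whose bladders had been inoculated with an adenovirus coding for Cre recombinase, the enzyme that excises floxed sequence. These mice then received intraperitoneal CM272 at 5 mg/kg per day for 30 days plus CDDP (cisplatin) at 6 mg/kg once a week. Bladder tumors came from mice of the same strain and genotype with the same inoculation and no treatment recorded. Both agents were given together, so their parts cannot be told apart. The treated samples are labelled by tissue as bladder and the untreated ones as bladder tumor, and the labels do not say how much tumor each treated bladder still held. Cre was delivered to the organ by inoculation, so a sample can hold recombined and unrecombined cells side by side. Age and sex are not stated. The labels also do not say that each array is a separate animal, so a p-value here reflects only how these samples vary, and some of that variation may be technical.

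CM272 inhibits both G9a, a histone methyltransferase that marks silent chromatin, and the DNA methyltransferases that copy and set cytosine methylation. Loss of these marks is known in other systems to release silenced germline genes and repeats and, through sensing of their RNA, to raise interferon-stimulated genes. Cisplatin forms DNA crosslinks that block replication, and cells answer them with excision and crosslink repair and, where p53 is active, with p53 target genes. The normal bladder wall is a urothelium capped by uroplakin plaques, over a lamina propria of fibroblasts and vessels and a thick layer of smooth muscle. A series title that speaks of immune-mediated regression sets the question: which of these programs differed between treated bladders and tumors, and by how much against the spread between samples.

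The submitters describe all values as RMA signals on the log2 scale. They are given with 1 row a gene, so a difference of 1 is read as 2-fold. Of 65956 rows in the series, 284 held a value above 16, the log2 limit of a 16-bit scanner, and the highest was 22.02. Array medians were not equal and ran from 5.07 to 5.42 over the 20 arrays. The cause was not tested, so the 2-fold reading rests on the submitters' description. Differences are treated minus tumor, with the standard error (SE) of the fit. Where 3 values stand together they are treated bladders 1, 2 and 3, and the 7 tumors are given from lowest to highest with their median. The number of arrays limits the precision. The arrays of bladder tumors 3, 4 and 5 stood apart: the deviations of their genes from the mean of all arrays correlated with no other array above r = 0.139, in a set of 8 such arrays across the series, against 0.328 to 0.609 for the other 12. They are called near-mean below, and the main results are also given without them. The name does not mean that their single genes deviated little. The standard deviation of these deviations was 0.30, 0.30 and 0.32 in bladder tumors 3, 4 and 5. It was 0.34, 0.30 and 0.31 in treated bladders 1, 2 and 3, and 0.53, 0.34, 0.45 and 0.38 in bladder tumors 1, 2, 6 and 7. The mean signal of 1580 chemosensory receptor genes, which bladder is not known to use and whose signal stands here for background, was 5.11, 4.78 and 5.16 in treated bladders, against 4.64 to 5.27 in tumors. It was lowest in bladder tumor 6 and highest in bladder tumor 1, and treated bladder 2 stood below the other treated bladders.

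No gene passed the test. limma called 0 of 30142 genes (0.0%) at a Benjamini-Hochberg adjusted p under 0.05, and no adjusted p was below 1.0; for every gene below, the adjusted p was therefore 1.0 after rounding. At an unadjusted p under 0.05 there were 147 genes (0.488%), 128 higher (0.425%) and 19 lower (0.063%) in treated bladders, where 1507.1 are expected by chance. The count was thus far below the chance number, and the cause was not tested. A gene that did not pass is therefore not shown to be unchanged. Over all genes the median difference was -0.00, with 49.4% of genes higher and 50.6% lower. The typical SE of a gene was 0.18 on the log2 scale, and 41 genes had a mean difference beyond 1 in either direction. Without bladder tumors 3, 4 and 5 limma again called 0 genes (0.0%), with 101 (0.335%) at an unadjusted p under 0.05, 50 higher and 51 lower.

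**Figure D1:**
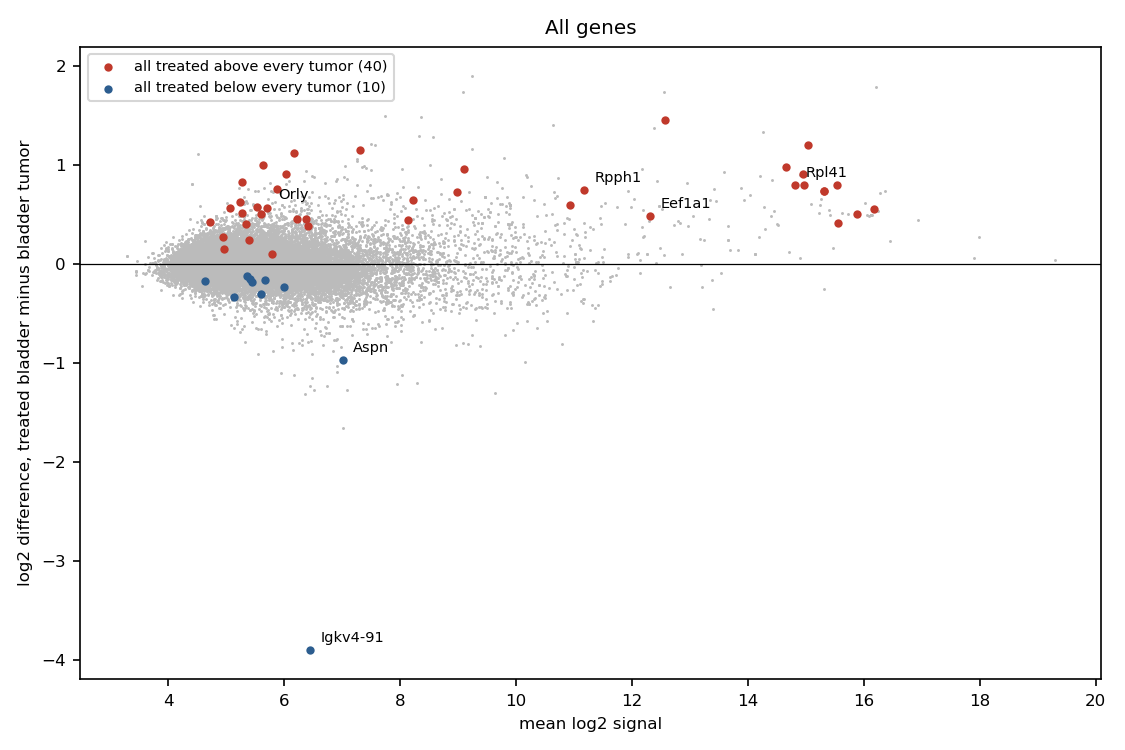
Mean log2 signal over the 10 arrays (x) against the mean log2 difference, treated bladder minus bladder tumor (y), for 30142 genes in grey. Coloured points are the genes whose 3 treated arrays all lay above (40) or all below (10) every tumor; named ones are labelled.

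Separation was rare also without a model. In 40 genes (0.133%) all treated bladders read above every tumor, and in 10 genes (0.0332%) all read below. Predicted, small RNA and chemosensory genes made up 31 of the 40, and as their share of all genes was not counted, no excess is read from this. The 5 genes with the smallest p were among them: the olfactory receptor genes Olfr981 (6.01, 5.77 and 5.76 in treated bladders, against 4.7 to 5.37 in tumors with a median of 4.87) and Olfr1384 (6.41, 6.16 and 6.42 in treated bladders, against 4.6 to 6.04 in tumors with a median of 5.32), together with 3 predicted genes (Gm23271, Gm14355, Gm24796) with differences of 0.92, 1.12 and 1.15. The 9 others that stood higher included abundant structural RNAs and messages of the translation apparatus. Rpl41, the smallest ribosomal protein, read 15.35, 15.42 and 15.36 in treated bladders, against 13.91 to 15.08 in tumors with a median of 14.90. The elongation factor gene Eef1a1 read 12.60, 12.74 and 12.64 in treated bladders, against 11.49 to 12.59 in tumors with a median of 12.29. Rpph1, the RNA of RNase P, read 11.53, 11.89 and 11.67 in treated bladders, against 10.15 to 11.48 in tumors with a median of 11.06, and the 7SL RNA genes Rn7s1 and Rn7s2, which share 1 set of values and so count as 1 measurement, read 15.83, 15.85 and 15.80 in treated bladders, against 13.92 to 15.48 in tumors with a median of 15.40. Rn28s1, the 28S ribosomal RNA, read 15.85 in each treated bladder, against 14.88 to 15.83 in tumors, where bladder tumors 3, 4 and 5 were the lowest at 14.88, 14.97 and 14.91; its difference was 0.42 ± 0.30 with all tumors and 0.03 without those. Readings this alike just below 16 may be saturated, so neither the separation nor the size of the difference is secure. The near-mean tumors also lowered the tumor mean of Rpl41, whose difference was 0.80 ± 0.36 with them and 0.36 without. The remaining higher genes were Orly, a noncoding RNA gene of the Y chromosome (6.2, 5.98 and 6.14 in treated bladders, against 5.2 to 5.91 in tumors with a median of 5.53), Apol9b (0.15 ± 0.10) and Cldn34c1 (0.10 ± 0.07).

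The 10 genes that stood lower in every treated bladder than in every tumor were all named ones, again without a share of all genes to compare. Igkv4-91, an immunoglobulin kappa variable segment, read 3.8, 3.91 and 3.43 in treated bladders, against 4.32 to 16.16 in tumors with a median of 6.32, with 16.16 in bladder tumor 1 and 8.36 in bladder tumor 2; the difference was -3.9 ± 1.65, and -2.48 without bladder tumor 1. The highest reading exceeds 16, the log2 limit of a 16-bit scanner, and the treated readings lie below the chemosensory mean of their arrays, so the size of the difference is uncertain at both ends. Aspn, which codes for the matrix proteoglycan asporin, read 6.42, 6.56 and 6.01 in treated bladders, against 6.62 to 10.13 in tumors with a median of 6.88, where bladder tumor 6 held the highest value and the other tumors read at most 6.91. Ak4, a mitochondrial adenylate kinase, read 4.94, 4.92 and 4.83 in treated bladders, against 4.97 to 5.73 in tumors with a median of 5.21, and Gja1, a gap junction connexin, read 5.42, 5.37 and 5.37 in treated bladders, against 5.46 to 6.27 in tumors with a median of 5.63. For both genes the lowest tumor lay just above the highest treated bladder. The other 6, Hspa13, Tmco3, Klhdc8a, Poglut2, Ddx55 and Prmt7, differed by -0.23 to -0.12. Without bladder tumors 3, 4 and 5, 112 genes stood higher (0.372%) and 55 lower (0.182%). Beside genes already named, the highest differences there were those of Xist, the RNA that silences an X chromosome in females, at 5.98, 5.59 and 6.44 in treated bladders against 4.89, 4.8, 4.52 and 4.77 in bladder tumors 1, 2, 6 and 7, and Tmem255a (0.57). The near-mean tumors read 5.95, 6.09 and 5.85 for Xist, inside the treated range. Cenpw, a kinetochore protein (-0.55), and Cpsf2, a subunit of the pre-mRNA cleavage complex (-0.43), joined Igkv4-91, Aspn and Ak4 on the lower side.

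No gene among all 30142 passed the test, and so none of the machinery that CM272 targets did. Ehmt2, which codes for G9a, read 6.65, 6.98 and 6.74 in treated bladders, against 6.58 to 6.96 in tumors with a median of 6.76, a difference of 0.02 ± 0.11. Dnmt1, the maintenance DNA methyltransferase, read 6.73, 7.81 and 6.78 in treated bladders, against 6.75 to 8.47 in tumors with a median of 7.43, a difference of -0.39 ± 0.33, with treated bladders 1 and 3 near the lowest tumor and treated bladder 2 above the tumor median. Uhrf1, the cofactor that brings Dnmt1 to hemimethylated DNA, had the same order of arrays (5.42, 5.82 and 5.42 in treated bladders, against 5.27 to 5.97 in tumors with a median of 5.67). The de novo methyltransferases Dnmt3a and Dnmt3b differed by -0.13 ± 0.10 and 0.02 ± 0.10. Of the 15 measured genes of this machinery 11 had lower means in treated bladders, none passed, and the median difference was -0.03; the extremes were Tet1 (0.10), a methylcytosine dioxygenase, and Dnmt1. Of the retinoblastoma family, Rb1 read 5.98, 6.17 and 5.87 in treated bladders, against 5.55 to 6.48 in tumors with a median of 5.97 and Rbl1 (p107) read 6.03, 7.01 and 6.19 in treated bladders, against 6.15 to 7.09 in tumors with a median of 6.59; whether the probes lie in deleted sequence is not known here, so they check nothing. E2f1, the activator that Rb restrains, differed by -0.21 ± 0.17, and the lowest of the 12 family members was Tfdp1, the partner of E2F proteins, at -0.37 ± 0.35.

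Proliferation genes had lower means in treated bladders throughout. All 26 measured mitosis and spindle genes and all 24 replication genes lay below 0, and 11 of 12 histone genes did, against 50.6% of all genes; none passed the test, and none of them separated the groups, against 0.0332% of all genes. Median differences were -0.30 for mitosis, -0.25 for replication and -0.24 for replication-dependent histones, beside -0.00 over all genes. The mean of the mitosis list was 5.32, 5.95 and 5.41 in treated bladders, against 5.28 to 6.49 in tumors (median 5.8). Treated bladders 1 and 3 thus lay beside the lowest tumor, bladder tumor 7, while treated bladder 2 lay above the tumor median. The replication list had the same order, with 5.47, 6.16 and 5.47 in treated bladders against 5.45 to 6.55 in tumors (median 5.91). The series also holds 5 control bladders, from mice of the same strain and genotype and labelled by tissue as bladder. Their mitosis mean was 5.14 and 5.19 in control bladders 1 and 2, and 5.7, 5.79 and 5.85 in control bladders 4, 5 and 6, which are near-mean arrays.

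**Figure D2:**
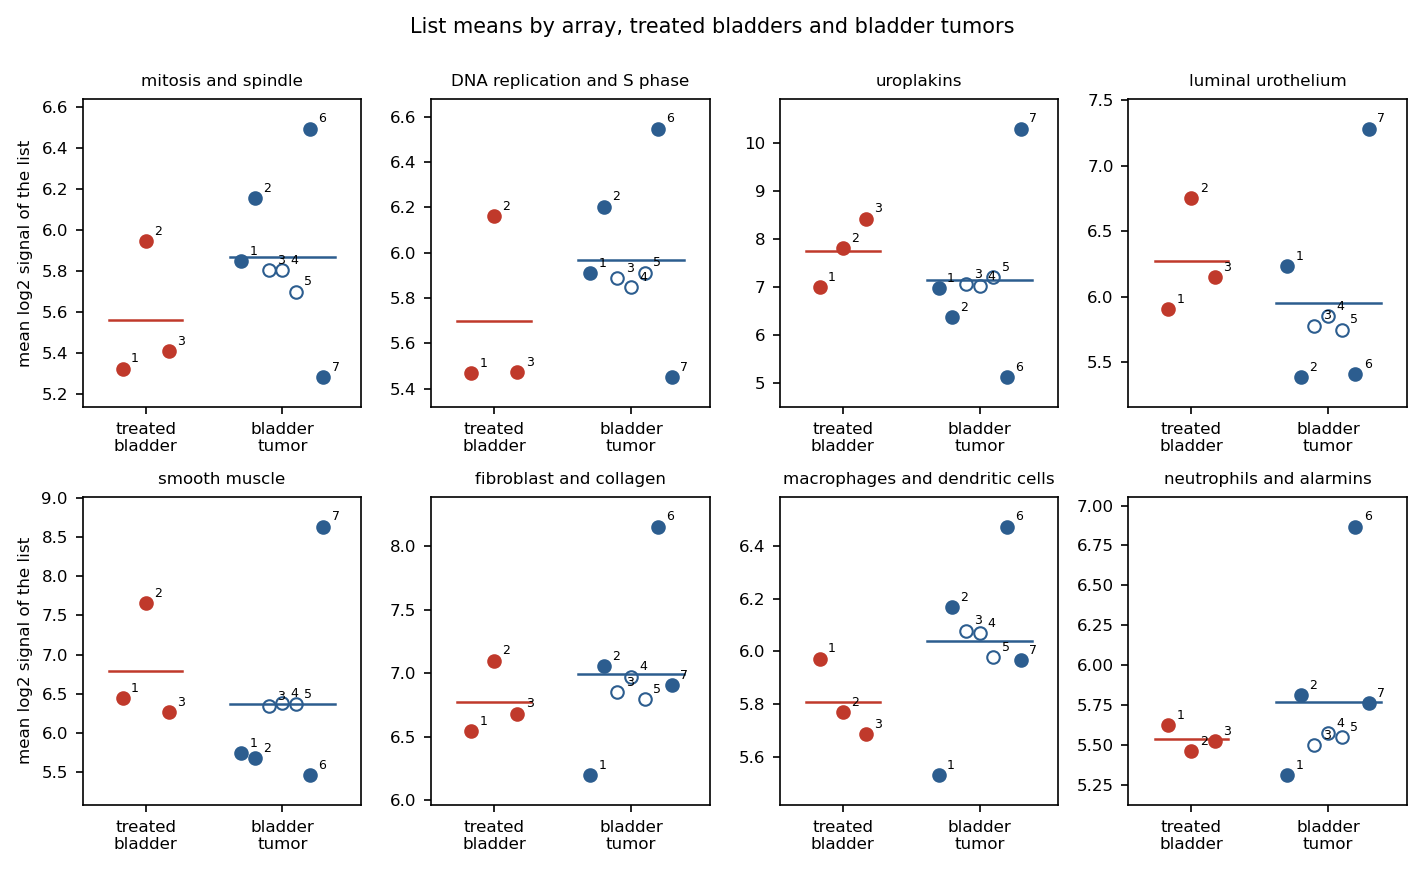
Mean log2 signal of the measured members of 8 gene lists in each array (y), with the 3 treated bladders left of the 7 bladder tumors in every panel, numbered by replicate. Open circles are the near-mean bladder tumors 3, 4 and 5, bars are group means, and bladder tumors 6 and 7 take the highest or lowest place in most panels.

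Mki67 and Top2a had the lowest differences of the mitosis list. Mki67, the Ki-67 antigen of cycling cells, read 5.4, 7.61 and 5.7 in treated bladders, against 5.63 to 8.46 in tumors with a median of 6.81, a difference of -0.70 ± 0.66. Top2a, the topoisomerase that untangles replicated DNA, read 5.34, 6.75 and 5.63 in treated bladders, against 5.35 to 8.18 in tumors with a median of 6.32, a difference of -0.70 ± 0.54. For both genes treated bladder 2 was above the tumor median, and treated bladders 1 and 3 lay next to bladder tumor 7, the lowest tumor. The anaphase activator Cdc20 read 5.32, 5.81 and 5.09 in treated bladders, against 5.04 to 6.42 in tumors with a median of 5.77 and the checkpoint kinase Bub1b 5.13, 5.45 and 5.22 in treated bladders, against 5.05 to 5.99 in tumors with a median of 5.5. Plk1, a mitotic kinase, read 5.55, 6.23 and 5.65 in treated bladders, against 5.3 to 7.82 in tumors with a median of 5.86, where bladder tumor 6 stood far above the rest, and Cdk1, the kinase that drives entry into mitosis, read 4.93, 5.64 and 4.96 in treated bladders, against 5.0 to 6.15 in tumors with a median of 5.39. Birc5, survivin, read 4.96, 5.05 and 4.88 in treated bladders, against 5.02 to 5.82 in tumors with a median of 5.08, and the smallest difference of the list was that of the transcription factor gene Mybl2 (-0.08). In 12 of the 26 genes all treated bladders read below the tumor median, against 8.76% of all genes, by a rule chosen after the values were seen. The same held for 5 of 24 replication genes and 4 of 12 histone genes.

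Among replication genes, cyclin A (Ccna2) had the lowest difference, -0.55 ± 0.37, with 5.5, 6.62 and 5.8 in treated bladders, against 5.83 to 7.61 in tumors with a median of 6.53. The helicase subunit Mcm2 read 4.92, 5.59 and 5.08 in treated bladders, against 4.94 to 6.0 in tumors with a median of 5.55, Mcm5 5.34, 6.0 and 5.28 in treated bladders, against 5.27 to 6.4 in tumors with a median of 5.84 and the sliding clamp Pcna 6.87, 8.48 and 6.87 in treated bladders, against 7.29 to 9.1 in tumors with a median of 7.71. Rrm2, the inducible subunit of ribonucleotide reductase, differed by -0.19 ± 0.23 and cyclin E (Ccne1) by -0.06 ± 0.25, the smallest of the list. In every one of these genes treated bladder 2 was the highest treated array, and it exceeded the tumor median, while treated bladders 1 and 3 lay under it. The lowest histone was H2bc12, a replication-dependent H2B gene, at 5.28, 6.04 and 4.96 in treated bladders, against 5.15 to 7.03 in tumors with a median of 6.51 and a difference of -0.75 ± 0.36. H2ax, the variant phosphorylated at DNA breaks, differed by -0.24 ± 0.35, and the only histone above 0 was Hist1h4b (0.01). Histone genes are near copies of each other, so their probes may read more than 1 member.

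Because the mitosis genes shared a direction, their promoters are shown for the members above that hold both motifs typical of cell cycle genes: the CCAAT box (CCAAT or ATTGG) and the CHR element (TTTGAA or TTCAAA), through which Rb-family complexes are known to act. RefSeq (build GRCm38.p6) gave a promoter for 23 of the 26 genes. In the 250 bases before the first listed start, on both strands, 17 held CCAAT (73.9%, against 34.5% of 27025 promoters), 7 held TTTGAA (30.4% against 16.3%) and 7 held both (30.4% against 5.73%). For CCAAT, replication genes (68.4% of 19) and smooth muscle genes (56.2% of 16), whose means ran opposite ways, also lay above the share of all promoters. Of 4 uroplakins 1 held CCAAT. In replication genes TTTGAA stood in 10.5% and in smooth muscle genes in 6.25%, below the share of all promoters (16.3%), and in no uroplakin. Both motifs together stood in the same shares of the replication and smooth muscle genes, against 5.73% of all promoters. A link of motif and direction was not tested. A match describes the letters and shows no binding. Capitals mark the motif matches, 5′ to 3′ on the strand of the gene.
Mki67, chr7:135716380-135716629, minus strand: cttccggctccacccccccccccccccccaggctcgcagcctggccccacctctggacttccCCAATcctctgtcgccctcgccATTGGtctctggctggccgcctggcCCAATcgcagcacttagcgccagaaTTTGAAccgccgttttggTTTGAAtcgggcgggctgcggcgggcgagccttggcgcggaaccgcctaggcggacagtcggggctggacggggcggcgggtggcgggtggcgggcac
Top2a, chr11:99024190-99024439, minus strand: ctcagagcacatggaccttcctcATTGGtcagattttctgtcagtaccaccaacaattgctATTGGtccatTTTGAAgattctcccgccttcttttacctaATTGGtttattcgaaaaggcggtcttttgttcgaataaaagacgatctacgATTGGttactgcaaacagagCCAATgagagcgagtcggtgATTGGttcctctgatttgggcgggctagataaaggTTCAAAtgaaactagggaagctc
Cdc20, chr4:118437344-118437593, minus strand: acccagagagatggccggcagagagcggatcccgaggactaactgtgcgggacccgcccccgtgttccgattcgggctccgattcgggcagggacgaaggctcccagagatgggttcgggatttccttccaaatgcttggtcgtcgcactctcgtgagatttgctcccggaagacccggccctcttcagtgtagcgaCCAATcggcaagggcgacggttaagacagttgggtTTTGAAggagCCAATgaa
Cdk1, chr10:69352913-69353162, minus strand: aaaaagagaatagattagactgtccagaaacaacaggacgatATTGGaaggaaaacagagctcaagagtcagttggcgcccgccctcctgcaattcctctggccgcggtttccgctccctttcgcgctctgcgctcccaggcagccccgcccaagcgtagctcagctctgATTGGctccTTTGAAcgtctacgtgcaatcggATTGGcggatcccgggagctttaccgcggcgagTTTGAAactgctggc

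p53 targets, repair genes and platinum handling genes were described next, as groups that cisplatin is known to engage. Of 22 p53 targets 10 had higher and 12 lower means, the median difference was -0.01, and none passed. Cdkn1a, the p21 cell cycle inhibitor, read 6.3, 7.35 and 6.36 in treated bladders, against 5.84 to 7.09 in tumors with a median of 6.48, so treated bladder 2 was above every tumor and treated bladders 1 and 3 were inside their range. Mdm2, the ligase that degrades p53, differed by -0.04 ± 0.10, the death gene Bbc3 by 0.00 ± 0.11 and Ccng1 by -0.08 ± 0.29. Perp, a desmosome-associated p53 target of epithelia, had the highest difference (0.40 ± 0.33) and the death receptor gene Tnfrsf10b the lowest (-0.21 ± 0.17). Repair genes lay close to 0: 27 genes had a median difference of -0.04 and a range from -0.27 (Msh6, a mismatch sensor) to 0.11 (Ercc5, an excision nuclease). Ercc1, the partner of the crosslink nuclease, read 5.56, 5.68 and 5.59 in treated bladders, against 5.47 to 5.86 in tumors with a median of 5.6, while Fancd2 and Brca1, which act in crosslink repair, differed by -0.08 ± 0.09 and -0.15 ± 0.20.

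Genes of platinum uptake and detoxification split evenly, 13 higher and 13 lower, but held the widest single difference of any list, Gstm1, a glutathione transferase. It read 10.53, 9.21 and 11.18 in treated bladders, against 5.54 to 13.35 in tumors with a median of 8.51, a difference of 1.74 ± 1.3. Gsta4, which conjugates lipid peroxidation products, read 8.54, 10.25 and 8.84 in treated bladders, against 5.96 to 11.19 in tumors with a median of 8.24, a difference of 1.0 ± 0.79. All treated bladders exceeded the tumor median for both genes, and bladder tumor 7 exceeded all treated bladders. The copper and platinum importer Slc31a1 differed by -0.17 ± 0.20 and the copper exporter Atp7a by -0.14 ± 0.20. Of the metallothioneins, which bind metals, Mt1 read 7.11, 7.88 and 6.41 in treated bladders, against 6.33 to 8.61 in tumors with a median of 7.46, and Mt2 differed by -0.28 ± 0.30; Mt1 had the lowest difference of the list (-0.38). Gstp1, Nqo1 and Hmox1 differed by -0.02, 0.05 and -0.10, none of them beyond its SE.

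Urothelial differentiation genes had higher means in treated bladders. Of the 6 uroplakins 5 were higher, with a median difference of 0.62, and of the 22 luminal genes 20, with a median of 0.24. None passed and no groups separated, against 0.0% and 0.166% of all genes. Upk1a, a tetraspanin of the plaque, read 8.1, 9.15 and 11.14 in treated bladders, against 5.37 to 13.93 in tumors with a median of 8.01, a difference of 1.29 ± 1.38. Upk3a, which spans the membrane once, read 7.93, 8.51 and 8.77 in treated bladders, against 4.55 to 12.21 in tumors with a median of 7.2. The Upk3a difference was 1.21 ± 1.2. Upk1b read 9.16, 11.10 and 12.14 in treated bladders, against 6.59 to 13.44 in tumors with a median of 10.27 and Upk2 5.94, 6.64 and 7.37 in treated bladders, against 4.68 to 9.5 in tumors with a median of 5.95. These uroplakins shared an order among tumors, with bladder tumor 6 lowest and bladder tumor 7 highest, and bladder tumor 7 exceeded every treated bladder. The exception was Upk3b, of mesothelium and urothelium, at 5.45, 6.18 and 5.75 in treated bladders, against 4.58 to 7.48 in tumors with a median of 5.92 and a difference of -0.37 ± 0.50. In single arrays the uroplakin mean was 7.0, 7.81 and 8.43 in treated bladders, against 5.13 to 10.30 in tumors (median 7.03).

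The luminal list mean was 5.9, 6.75 and 6.15 in treated bladders, against 5.38 to 7.28 in tumors (median 5.78), highest in treated bladder 2, although single genes differed in their order. Snx31, a sorting nexin that binds uroplakins, had the highest difference, 0.94 ± 0.92, with 6.81, 6.9 and 7.4 in treated bladders, against 4.13 to 10.33 in tumors with a median of 5.76, and Cldn3, a claudin, the lowest (-0.06). Krt20, a keratin of umbrella cells, read 5.56, 4.96 and 5.33 in treated bladders, against 4.64 to 6.27 in tumors with a median of 4.87. The tight junction gene Cldn4 read 6.32, 8.43 and 7.14 in treated bladders, against 5.62 to 8.1 in tumors with a median of 6.0 and E-cadherin (Cdh1) 6.3, 8.05 and 6.67 in treated bladders, against 5.94 to 8.09 in tumors with a median of 6.25. Pparg, a driver of luminal fate, differed by 0.31 ± 0.38, and Foxa1 (0.01 ± 0.18) and Epcam (0.03 ± 0.15) by less than their SE. In 12 of 22 genes all treated bladders read above the tumor median, against 10.7% of all genes, again by a rule chosen after the values were seen. Smooth muscle genes met this rule in 12 of 20. Basal and squamous genes did not share a direction (13 higher, 10 lower of 23, median 0.04). Krt5, the basal keratin, read 6.46, 8.87 and 7.76 in treated bladders, against 5.44 to 9.31 in tumors with a median of 6.89 and Ivl, the cornified envelope protein involucrin, 7.52, 11.14 and 9.01 in treated bladders, against 4.7 to 13.18 in tumors with a median of 7.53; Ivl had the highest difference of the list (1.29 ± 1.39). Krt14 differed by -0.18 ± 0.19, Trp63, the master gene of basal cells, by 0.21 ± 0.24, and Cd44 by 0.00 ± 0.19. Egfr, the receptor of epidermal growth factor, was lowest of the list at 6.13, 6.55 and 6.12 in treated bladders, against 6.01 to 8.34 in tumors with a median of 6.74, a difference of -0.64 ± 0.38, with all treated bladders below the tumor median. Among the 15 receptor kinases the median was 0.02, and Erbb2, Erbb3 (the highest) and Fgfr3 differed by 0.11, 0.24 and 0.09.

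**Figure D3:**
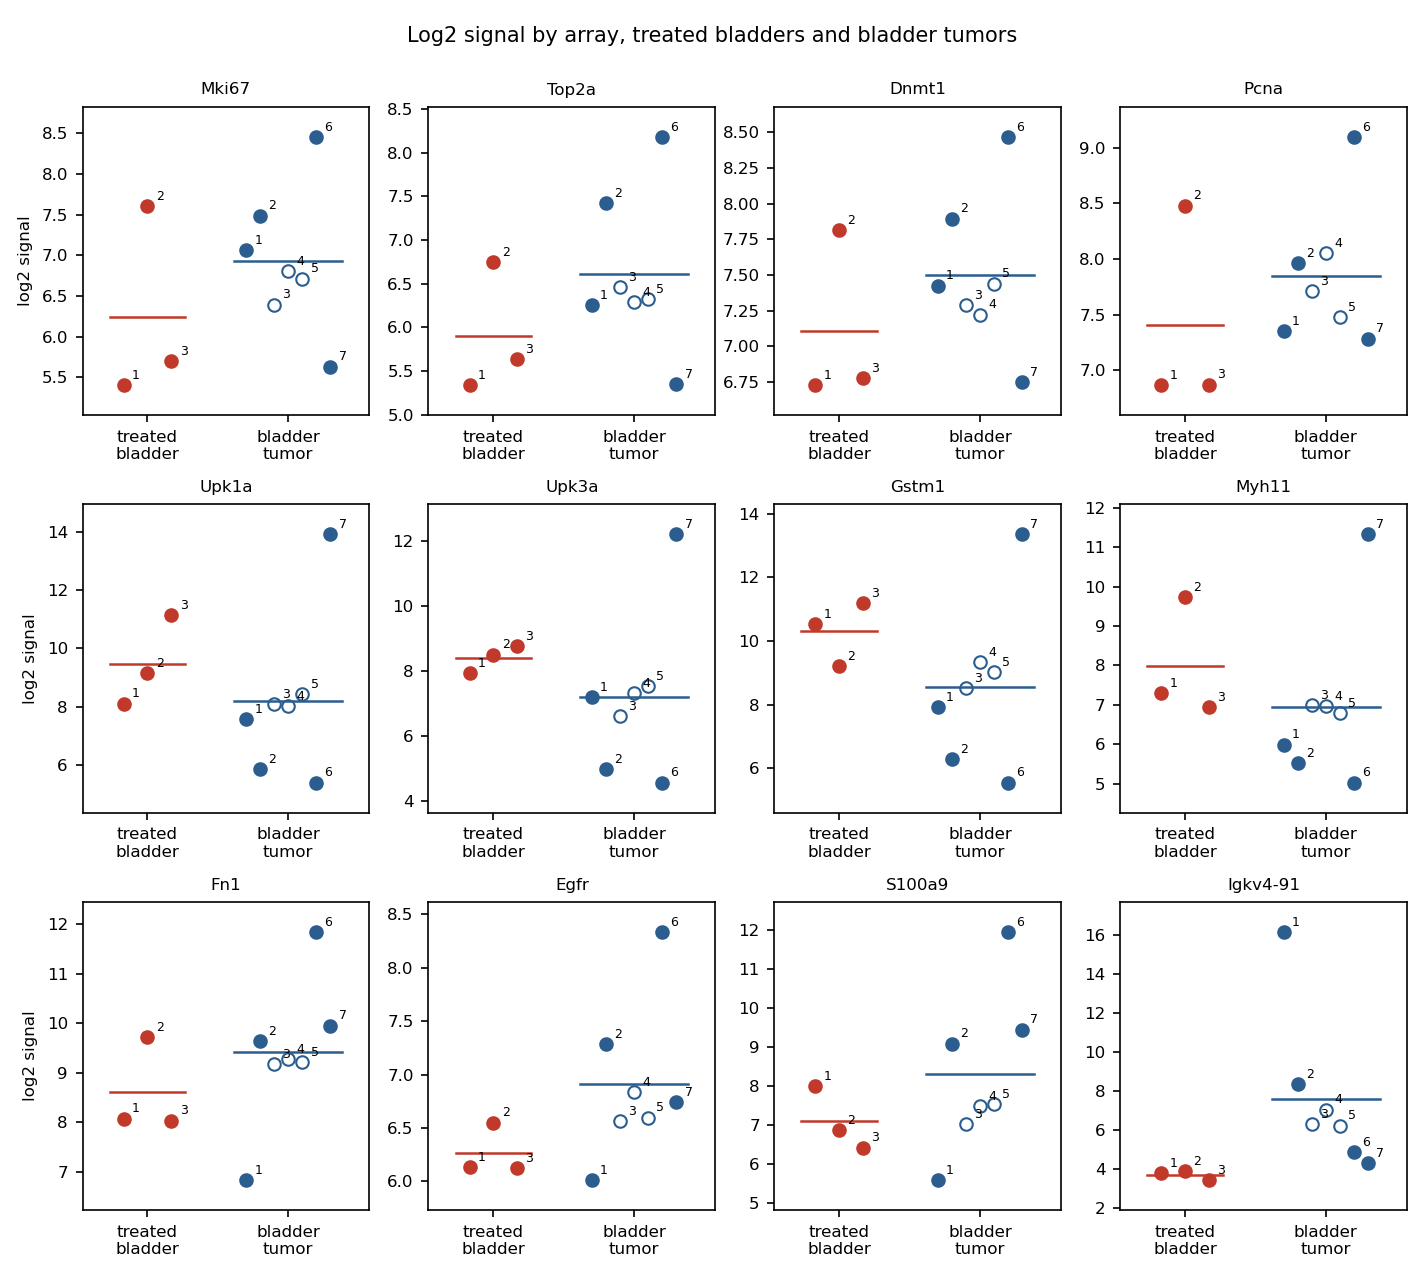
Log2 signal of 12 genes in each array (y), with treated bladders left of bladder tumors, numbered by replicate. Open circles are bladder tumors 3, 4 and 5 and bars are group means; the groups overlap in every panel but that of Igkv4-91.

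Smooth muscle genes were higher in mean in 18 of 20 genes, by a median of 0.35, and none passed. The list mean was 6.45, 7.65 and 6.27 in treated bladders, against 5.46 to 8.63 in tumors (median 6.34), so treated bladder 2 lay above the median tumor and treated bladders 1 and 3 lay beside it. Actg2, enteric actin and the highest difference of the list (1.22 ± 1.1), read 8.14, 10.53 and 6.39 in treated bladders, against 5.38 to 11.51 in tumors with a median of 6.8. Myh11, smooth muscle myosin, read 7.31, 9.74 and 6.94 in treated bladders, against 5.03 to 11.32 in tumors with a median of 6.79, and Acta2, smooth muscle actin, 7.86, 10.81 and 6.71 in treated bladders, against 5.94 to 12.16 in tumors with a median of 7.45. Desmin (Des) and calponin (Cnn1) differed by 0.47 ± 0.49 and 0.63 ± 0.68, and Tpm1 was lowest at -0.05. Bladder tumor 7, highest for uroplakins, was highest here too, and bladder tumor 6, lowest for uroplakins, was lowest here too. In bulk tissue, fewer cells of a type and less RNA per cell cannot be told apart. In the mitosis list the order was turned, with bladder tumor 6 highest and bladder tumor 7 lowest. In these 2 tumors smooth muscle signal thus stood opposite to proliferation signal, and its part in the proliferation values was not tested.

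Stromal genes ran the other way. Of 21 fibroblast and collagen genes 16 had lower means, with a median of -0.22, and 9 of 12 EMT genes did, with a median of -0.14. Col1a1, the main fibrillar collagen, read 7.21, 7.72 and 7.16 in treated bladders, against 6.89 to 9.77 in tumors with a median of 7.57 and Col3a1 6.71, 7.06 and 6.81 in treated bladders, against 6.55 to 8.43 in tumors with a median of 7.05, with differences of -0.53 ± 0.44 and -0.39 ± 0.30. Bgn, biglycan, was lowest (-0.67 ± 0.66) and Col12a1 highest (0.24 ± 0.58). Lox, which crosslinks collagen, read 5.63, 5.53 and 5.13 in treated bladders, against 5.42 to 7.47 in tumors with a median of 5.91, a difference of -0.63 ± 0.32, below the tumor median in all treated bladders. Decorin (Dcn), Fap and periostin (Postn) differed by -0.39, 0.01 and 0.02; Postn read 7.5, 10.05 and 8.11 in treated bladders, against 6.53 to 12.91 in tumors with a median of 8.03, with bladder tumor 6 highest. Fibronectin (Fn1) had the lowest EMT difference, -0.81 ± 0.73, with 8.07, 9.72 and 8.03 in treated bladders, against 6.82 to 11.84 in tumors with a median of 9.27, while vimentin (Vim), Zeb1 and Snai1 differed by -0.32, -0.18 and -0.09, and Tgfb1 was highest (0.18). Of the matrix proteases and inhibitors, Timp1 was lowest, -0.48 ± 0.47, with 5.42, 5.47 and 5.22 in treated bladders, against 4.96 to 8.22 in tumors with a median of 5.6, and Mmp7 highest (0.17); Mmp9 and Mmp13 differed by -0.03 and -0.04. Bladder tumor 6 was the highest tumor for Col1a1, Bgn, Lox, Postn, Fn1 and Timp1. Endothelial genes had a median of 0.05 between -0.10 (Cldn5) and 0.23 (Emcn), with 0.06 for Pecam1, 0.04 for Cdh5 and 0.15 for Kdr.

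Myeloid genes were lower in mean. Of 26 macrophage and dendritic cell genes 22 were lower, by a median of -0.20, and none passed. In 14 of the 26 all treated bladders read below the tumor median, against 8.76% of all genes, again by a rule chosen after the values were seen. Fibroblast and collagen genes met this rule in 7 of 21. The list mean was 5.97, 5.77 and 5.69 in treated bladders, against 5.53 to 6.47 in tumors (median 6.07). Here treated bladder 2 did not stand apart, unlike in the proliferation lists. Lyz2, lysozyme of macrophages and neutrophils, had the lowest difference (-0.82 ± 0.80) and read 8.94, 8.56 and 7.65 in treated bladders, against 6.87 to 10.63 in tumors with a median of 9.36. C1qa, a subunit of complement C1q, read 5.77, 5.77 and 4.98 in treated bladders, against 5.31 to 6.19 in tumors with a median of 5.83. The leukocyte gene Ptprc (CD45) read 6.43, 6.32 and 5.87 in treated bladders, against 5.86 to 8.08 in tumors with a median of 6.69, the receptor gene Csf1r 6.0, 5.89 and 5.83 in treated bladders, against 5.59 to 6.45 in tumors with a median of 6.02 and Adgre1, a macrophage surface receptor, 5.5, 5.32 and 5.56 in treated bladders, against 5.37 to 6.09 in tumors with a median of 5.61. Arg1 and Nos2, marks of opposed macrophage states, differed by -0.14 and 0.02, and Xcr1, of cross-presenting dendritic cells, was highest (0.23).

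Neutrophil genes were lower in mean in 18 of 19, with a median of -0.10 that rested largely on bladder tumor 6 (-0.01 without it). S100a9, an alarmin subunit and the lowest of the list, read 8.0, 6.88 and 6.43 in treated bladders, against 5.59 to 11.97 in tumors with a median of 7.55, a difference of -1.21 ± 1.01, and its partner S100a8 6.13, 7.06 and 5.37 in treated bladders, against 4.07 to 11.96 in tumors with a median of 6.94, a difference of -1.03 ± 1.17. For both genes bladder tumor 1 lay below all treated bladders, and in no gene of the list did all treated bladders read below the tumor median. Il1b differed by -0.26 ± 0.41 and Ly6g by -0.05 ± 0.18, and Lcn2 alone was above 0 (0.05). For mast cells and eosinophils the median was -0.04, from Mcpt4 (-0.20) to Tpsb2 (0.17), with Cpa3, a mast cell protease, at -0.07.

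As 0 of all 30142 genes passed the test, no T or NK cell gene did. The T, cytotoxic and NK list averaged 5.31, 5.06 and 5.26 in treated bladders, against 5.07 to 5.38 in tumors. Like the chemosensory mean, it was lowest in treated bladder 2 among treated bladders, and lowest in bladder tumor 6 and highest in bladder tumor 1 among tumors. The median difference of its 23 genes was 0.01, from -0.27 (Ifng, interferon gamma) to 0.10 (Gzma). Cd8a, of cytotoxic T cells, read 5.01, 4.81 and 4.75 in treated bladders, against 4.61 to 5.08 in tumors with a median of 4.81, and Gzmb, a granzyme, 5.39, 5.17 and 5.75 in treated bladders, against 5.04 to 5.85 in tumors with a median of 5.56. Cd3e, Cd4 and Prf1 (perforin) differed by -0.11, 0.01 and -0.01. Of 20 checkpoint genes, with a median of -0.03, Pdcd1 (PD-1) was highest at 0.16 ± 0.13 and Cd47 lowest at -0.25 ± 0.42, while Cd274 (PD-L1), Ctla4, Lag3, Havcr2 and Ido1 differed by 0.06, -0.03, -0.04, 0.06 and -0.03. B and plasma cell genes had a median of -0.08, with Ighm, the IgM heavy chain, lowest at -0.78. It read 6.9, 5.9 and 4.94 in treated bladders, against 5.25 to 9.54 in tumors with a median of 6.2, and Cr2 was highest (0.12). Jchain, which joins IgM and IgA, read 6.83, 5.78 and 4.93 in treated bladders, against 5.41 to 7.81 in tumors with a median of 6.18, while Cd79a and Ms4a1 differed by -0.14 and -0.14. Bladder tumor 1 was the highest array for Ighm and Jchain, as it was for Igkv4-91.

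No interferon or antigen presentation gene passed the test, and nor did any other of the 30142 genes. Of 29 interferon response genes 18 had lower means, with a median of -0.04. Ifit1, an early interferon target, read 5.25, 6.71 and 5.18 in treated bladders, against 5.13 to 6.98 in tumors with a median of 5.55, and Oas1a, the lowest of the list, 5.62, 7.31 and 5.74 in treated bladders, against 5.68 to 7.95 in tumors with a median of 6.44; treated bladder 2 stood over 1 above treated bladders 1 and 3 in both. Isg15, Irf1 and Irf7 differed by -0.04, -0.10 and -0.01, and Iigp1 was highest (0.16). The nucleic acid sensors had a median of -0.11, with Tlr3, the receptor of double-stranded RNA, highest (0.18 ± 0.32) and Tlr7 lowest (-0.50 ± 0.37); the RNA sensors Ddx58 and Ifih1 and the adaptor Sting1 differed by -0.21, -0.09 and -0.17. Among 17 antigen presentation genes (median -0.11), H2-K1 and H2-D1, classical class I genes, differed by -0.16 ± 0.34 and -0.23 ± 0.36, B2m by 0.10 ± 1.12, Tap1 by -0.13 and the class II genes Ciita and H2-Aa by 0.07 and -0.10. The B2m difference depended on single arrays, at -1.40 without treated bladder 2 and 1.16 without treated bladder 1. Ctss, which trims the class II chaperone, was lowest (-0.46) and H2-Eb1 highest (0.18). Chemokines split, 11 higher and 16 lower. Cxcl14, made by epithelia, was highest (0.80 ± 0.53) and read 7.97, 8.21 and 7.24 in treated bladders, against 6.0 to 8.82 in tumors with a median of 6.86; Cxcl13, which draws B cells, was lowest (-0.62 ± 0.95). The monocyte chemokine Ccl2 read 5.87, 6.12 and 6.11 in treated bladders, against 5.51 to 8.14 in tumors with a median of 6.48 and the T cell chemokines Ccl5, Cxcl9 and Cxcl10 differed by -0.34, 0.19 and -0.31, with Cxcl1 at -0.19.

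Genes that DNA methylation is known to silence or imprint showed no shared shift. The 23 germline genes had a median of -0.00, from -0.17 (Xlr3a) to 0.17 (Tex19.1). Their list mean, 5.12, 4.83 and 5.11 in treated bladders, lay near the chemosensory mean of those arrays (5.11, 4.78 and 5.16). Like that mean it was lowest in bladder tumor 6 and highest in bladder tumor 1 among tumors. Much of this signal may thus be background, and release of germline genes was not tested. Dazl, a germ cell RNA-binding protein, read 4.77, 4.68 and 4.86 in treated bladders, against 4.45 to 5.18 in tumors with a median of 4.89, Ddx4 (vasa) 5.73, 5.37 and 5.81 in treated bladders, against 5.26 to 5.99 in tumors with a median of 5.54 and Sycp3, of the synaptonemal complex, 5.81, 6.09 and 6.34 in treated bladders, against 5.58 to 6.3 in tumors with a median of 6.13. All treated bladders exceeded the highest tumor in none of these, and in 0.133% of all genes. Of 20 imprinted genes 8 had higher means (median -0.07). Ndn, a paternally expressed growth regulator, was highest at 6.73, 7.02 and 5.77 in treated bladders, against 5.1 to 7.26 in tumors with a median of 5.88 and Grb10, an adaptor of insulin signalling, lowest at 5.62, 5.41 and 5.61 in treated bladders, against 5.31 to 6.75 in tumors with a median of 5.78. Igf2, Dlk1, Peg3 and Plagl1 differed by 0.10, -0.02, 0.08 and 0.10.

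Stress and metabolic programs were mostly lower in mean, by little. Unfolded protein response genes were lower in 15 of 16 (median -0.11), immediate early genes in 14 of 15 (median -0.10) and hypoxia and glycolysis genes in 13 of 16 (median -0.09). Hspa5, the chaperone BiP, read 6.35, 7.19 and 6.61 in treated bladders, against 6.45 to 8.39 in tumors with a median of 7.23 and calreticulin (Calr) 7.53, 8.27 and 7.39 in treated bladders, against 7.46 to 9.31 in tumors with a median of 8.13, while Atf4, Atf3 and Ddit3 differed by -0.03, -0.10 and -0.22 and Sdf2l1 was highest (0.02). Jun read 4.76, 5.27 and 4.91 in treated bladders, against 4.99 to 5.53 in tumors with a median of 5.33, a difference of -0.33 ± 0.17, and Dusp1, a phosphatase that ends kinase signals, was lowest at -0.46 ± 0.43; Fos, Egr1 and Myc differed by -0.01, -0.06 and -0.26, and Klf6 was highest (0.05). In the hypoxia list Vegfa, Slc2a1, Ldha and Hk2 differed by -0.09, -0.23, -0.29 and -0.04, between Ankrd37 (0.03) and P4ha1 (-0.42). Cytokine and senescence genes had a median of -0.09: Cdkn2a, the p16 and Arf locus, was lowest at -0.35 and Il1a highest at 0.31, with Il6, Tnf and Ptgs2 at -0.19, 0.14 and -0.28. Cell death effectors had a median of -0.06, from Casp1 (-0.38) to Bcl2l1 (0.03), with Bcl2, Casp8 and Gsdmd at 0.03, -0.04 and 0.00. Oxidative phosphorylation genes had a median of -0.05 and cytosolic ribosomal protein genes of -0.03, between Ndufa1 (-0.38) and Cox6c (0.11) and between Rpl8 (-0.32) and Rps29 (0.31). Ndufa4, Sdha, Uqcrc2, Cox4i1 and Atp5a1 differed by -0.12, -0.04, 0.08, -0.15 and 0.03 and the ribosomal stalk gene Rplp0 by -0.13. In both lists treated bladder 2 was the highest treated array (6.76 and 8.11).

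Markers of other tissues had medians near 0. Medians were 0.01 for hepatocyte, 0.00 for lung epithelium, -0.04 for adipocyte, -0.05 for male accessory gland, -0.08 for striated muscle and 0.02 for nerve and glia genes. Albumin (Alb) read 5.47, 4.97 and 5.51 in treated bladders, against 5.06 to 5.82 in tumors with a median of 5.36, the surfactant gene Sftpc 5.23, 4.67 and 5.0 in treated bladders, against 4.59 to 5.34 in tumors with a median of 4.91 and the seminal vesicle gene Svs4 5.53, 5.18 and 5.87 in treated bladders, against 4.86 to 5.98 in tumors with a median of 5.52. The muscle genes Acta1 and Ckm differed by -0.13 and 0.02 and the neuronal gene Tubb3 by 0.04. Scgb1a1, Adipoq, Fabp4, Svs2 and Pbsn, of airway, fat and male glands, differed by -0.15, -0.14, -0.04, -0.04 and 0.03. The hepatocyte genes Ahsg and Ttr differed by -0.42 and 0.27, with Tnnt3, Mb, Uchl1, Snap25, Cyp2f2, Cidea, Defb50 and Svs3a at -0.30, 0.03, -0.08, 0.14, 0.17, 0.19, -0.16 and 0.18. Their list means ran between 4.84 and 5.66 in treated bladders, inside or below the tumor range in every list. Like the chemosensory mean, these list means were lowest in treated bladder 2 among treated bladders. For lung, adipocyte, male gland and nerve genes bladder tumor 6 was lowest and bladder tumor 1 highest, as for that mean. Hepatocyte genes were also lowest in bladder tumor 6, while striated muscle genes were highest there. Much of this signal may thus be background.

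Dropping bladder tumors 3, 4 and 5 widened several list differences. The median difference became -0.38 for mitosis, -0.33 for replication, -0.30 for histones, -0.34 for fibroblasts, -0.26 for neutrophils and 0.67 for uroplakins, stayed at -0.20 for macrophages and 0.35 for smooth muscle, and narrowed to 0.14 for luminal genes. All 26 mitosis genes, all 24 replication genes and all 19 neutrophil genes then had lower means in treated bladders, 15 of 22 luminal genes had higher ones, and the median over all genes was -0.01. Of 42 lists, 1 changed the sign of its median, basal and squamous epithelium (-0.02).

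**Figure D4:**
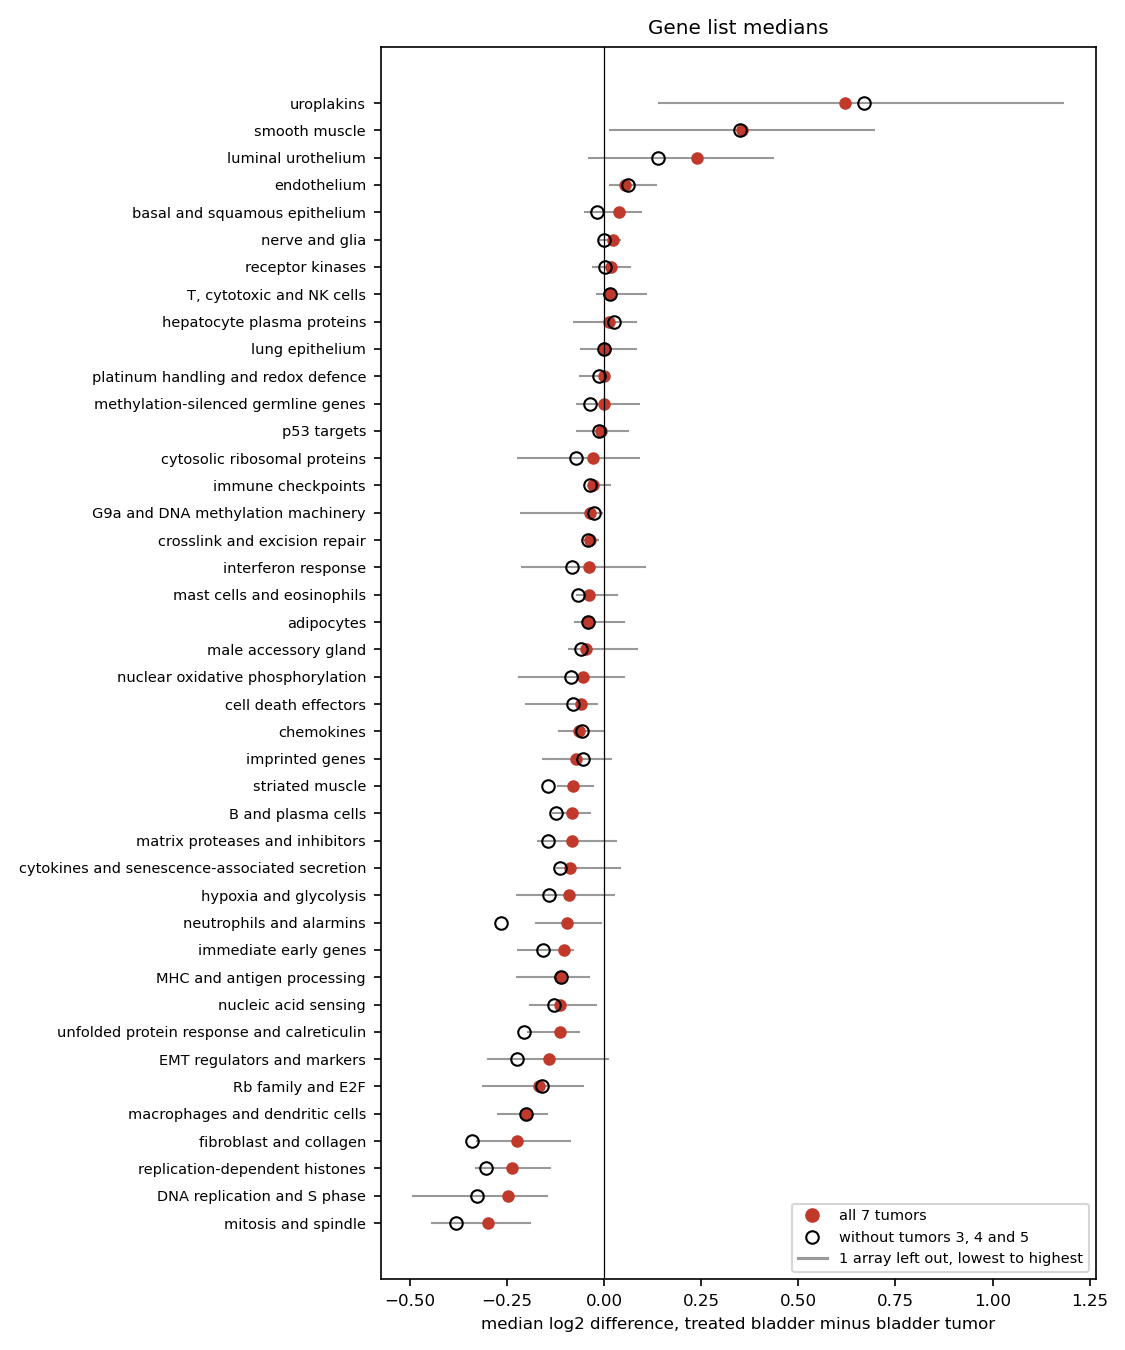
Median log2 difference, treated bladder minus bladder tumor, of 42 gene lists (x), with all 7 tumors (filled circles) and without bladder tumors 3, 4 and 5 (open circles); thin lines span the medians when 1 array of either group was left out. Mitosis stands at -0.30 and -0.38, smooth muscle at 0.35 in both, and lines that cross 0 mark lists whose sign depends on 1 array.

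Single arrays set much of the size. Without treated bladder 2 the mitosis median was -0.44 the replication median -0.49 and the histone median -0.33, whereas smooth muscle came to 0.02 and luminal urothelium to -0.04, on the other side of 0. The replication median was -0.15 without treated bladder 3, and the histone median -0.14 without treated bladder 1. Leaving out bladder tumor 7 moved smooth muscle to 0.69, luminal genes to 0.44 and uroplakins to 1.18; uroplakins came to 0.14 without treated bladder 3. Without bladder tumor 6 the mitosis median was -0.19, the fibroblast median -0.09 and the EMT median 0.01. The hypoxia, cytokine and protease medians then lay above 0, at 0.03, 0.04 and 0.03. The macrophage median moved least among these, between -0.27 and -0.15. With the chemosensory mean as a covariate the medians were -0.18 for mitosis, -0.14 for replication, -0.06 for fibroblasts and -0.08 for macrophages, each closer to 0, and 0.05 for hypoxia and 0.07 for cytokines, on the other side of 0.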

How the data were processed

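Per the labels' protocols, RNA from formalin-fixed, paraffin-embedded tissue was put on mouse whole-transcript arrays. Per the submitters' processing notes, the authors used RMA and the Affymetrix Expression Console, with no version named, and the table they deposited holds log2 signals. Of 65956 rows, 30604 carried 1 gene symbol, 2146 several and the rest none here. Where a gene had several rows, the one with the highest mean was kept, giving 30142 genes. limma 3.58.1 in R 4.3.3 fitted 19 arrays in 4 groups with empirical Bayes and Benjamini-Hochberg adjustment over all genes, at a threshold of 0.05. The fit was also run on simulated data with independent noise for each gene and array. Many of the real arrays shared deviations, so that run does not show how the fit performs on them. Named genes were each list's fixed anchors and its highest and lowest members, the 10 highest and 10 lowest of the non-overlapping genes, 5 each without bladder tumors 3, 4 and 5, and the 5 smallest p-values. The gene lists and members were chosen with earlier results of these data known. Further floxed alleles of the genotype are not reported here. Promoters came from RefSeq tables of build GRCm38.p6. Alternatives were other normalizations, array weights, a covariate, and leaving out arrays.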

Additional observations from a re-analysis of the deposited data

Results flagged for a closer look

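In the group of 7 tumors, 1 array often lay far from all others, by Dixon’s test for a single extreme value. It was met in 60 of 293 values and list means tested, 20.5%, where chance flags about 1 in 20 groups. That rate does not hold for these genes, many of which were named for extreme differences that a single tumor helps to set, and genes of a list are not independent. Bladder tumor 6 accounted for 37 of them and bladder tumor 7 for 18.

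Bladder tumor 6 lay far above the other tumors in Aspn (10.13), Birc5 (5.82), Casp1 (7.72), Ccl2 (8.14), Ccl5 (6.44), Cd44 (7.4), Col12a1 (10.48), Cxcl1 (5.75), Cxcl9 (6.82), Ddx58 (6.88), Dusp1 (7.13) and Gja1 (6.27). The same held for Hspa13 (6.37), Il1b (7.46), Il6 (5.88), Ldha (7.87), Myc (7.39), P4ha1 (7.91), Pcna (9.1), Plk1 (7.82), Postn (12.91), Ptgs2 (11.68), Slc2a1 (7.66) and Snai1 (6.22). The same held for Tap1 (6.57), Tfdp1 (8.85), Timp1 (8.22), Tnfrsf10b (7.04), Tnnt3 (6.92), Vegfa (8.33) and Zeb1 (8.42). Bladder tumor 7 lay far above the other tumors in Acta1 (8.13), Acta2 (12.16), Actg2 (11.51), Bcl2 (6.68), Ckm (6.5), Cnn1 (8.92), Cpa3 (6.82), Des (8.15), Fabp4 (10.04), Mcpt4 (7.39), Myh11 (11.32) and Snx31 (10.33). The same held for Upk1a (13.93), Upk2 (9.5) and Upk3a (12.21). Bladder tumor 1 lay far above the other tumors in Igkv4-91 (16.16) and Snap25 (6.27). Bladder tumor 1 lay far below the other tumors in Atp7a (5.19) and Dcn (5.87). Bladder tumor 3 lay far below the other tumors in Apol9b (4.75).

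Of the list means, bladder tumor 6 stood apart above for matrix proteases and inhibitors (6.65), hypoxia and glycolysis (6.97), unfolded protein response and calreticulin (7.37), nucleic acid sensing (6.3), neutrophils and alarmins (6.87) and cytokines and senescence-associated secretion (6.6). Of the list means, bladder tumor 7 stood apart above for platinum handling and redox defence (6.55), uroplakins (10.30) and smooth muscle (8.63). Values are log2 signals. The differences of these genes and lists between treated bladders and tumors rest in part on that 1 tumor.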

How the results depend on the processing

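limma called 0 genes under every alternative run: only the 2 groups, weights per array, another prior (trended and robust), a further quantile normalization, median centring, a dim-gene filter, a 2-fold threshold, fits without near-mean arrays, the chemosensory mean as a covariate, the mean of all rows of a gene, and each array left out. Unadjusted p under 0.05 ranged from 101 to 672 genes, leaving aside the 2-fold threshold, which had 0. Titles number the arrays and do not say whether the numbers pair the groups. Same-numbered treated bladders and tumors correlated at r = 0.44, -0.32 and 0.06 in their deviations from group means. These values cannot settle pairing, as they are few and bladder tumor 3 is a near-mean array. With the number as a replicate block limma again called 0 genes (249 at an unadjusted p under 0.05). The count of genes whose groups did not overlap, 50, was 167 without bladder tumors 3, 4 and 5, 48 after median centring (28 shared) and 35 after quantile normalization (15 shared). Leaving out 1 array gave 70 to 842, the highest without treated bladder 2; a smaller group overlaps less by construction. Of 42 list medians, 11 changed sign with the covariate, 12 with the block, 10 without bladder tumor 6 and 8 without treated bladder 2, among them luminal urothelium; the cause was not tested. Precision is limited by 3 treated arrays; the median standard error was 0.18.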
